A study of Mus musculus with 4 samples.

Results

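GABA synthesis, transport and chloride cotransport is represented by 6 of the 43348 genes in the files, Gad1, Gad2, Slc32a1, Abat, Slc12a2 and Slc12a5. They were picked by symbol for their roles, not for their rank in any result. Gad1 and Gad2 code for the enzymes that make GABA from glutamate, Slc32a1 for the carrier that loads GABA into vesicles and Abat for the transaminase that breaks it down. The cotransporters of Slc12a2 and Slc12a5 carry chloride into and out of cells, and their balance sets the gradient that GABA receptors act on.

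Cells were sorted by TdTomato from frontal cortex and hippocampus of mice in which Nkx2.1-Cre switches on the Ai14 reporter, at postnatal days 18 to 20, and their RNA was counted as unique molecular identifiers (UMIs) by droplet sequencing. Wild-type (WT) mice carried the Cre driver and the reporter too. In null mice the same driver also removed Grin1, the gene of an obligatory NMDA receptor subunit, so any effect of age at loss or of receptor loss in other Nkx2.1-lineage cells cannot be told apart from loss in the cell measured. Mice of both sexes were used, without a statement of the sexes in each library. Each library pooled several mice, which makes the library the unit of every test, and no value belongs to 1 animal.

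There were 10 libraries, 3 of WT cortex, 3 of WT hippocampus, 2 of null cortex and 2 of null hippocampus. Replicate 1 of every group was made with version 2 of the chemistry and replicates 2 and 3 with version 3, and neither null group has a replicate 3. Total UMIs were 9306756, 14212183 and 28057207 in WT cortex (replicates 1 to 3), 10555408, 8782181 and 20639002 in WT hippocampus, 1488601 and 25688337 in null cortex, and 3856745 and 47338167 in null hippocampus. In the same order the median UMIs per kept cell were 7098, 2912.5 and 6499, then 4411, 1479 and 5752, then 6684 and 8786.5, and last 8949 and 9763. WT hippocampus replicate 2 was thus the shallowest library and null hippocampus replicate 2 the deepest. Null cortex replicate 1 held 177 kept cells, the fewest of the 10 libraries.

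The kept cells of the 6 WT libraries included 7864 interneurons, namely 4938 of the somatostatin class (SST, with its TH cells), 1591 of the parvalbumin class (PVALB) and 1335 neurogliaform cells (NGFC). Another 8632 cells were of the oligodendrocyte lineage, which the driver also marks, 877 were glutamatergic and 306 astrocytes. Levels are in CPM, the UMIs of a gene per 1000000 UMIs of all cells of a class in a library, and SD is over libraries. A gene was called where edgeR gave an adjusted p under 0.01 over all genes tested and the change was 0.14 or more on the log2 scale (0.1 in natural logarithms).

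In the mouse assembly GRCm38, Gad1 (ENSMUSG00000070880.6 in the files) lies on chromosome 2 from 70553072 to 70602014 and Gad2 (ENSMUSG00000026787.3) on chromosome 2 from 22622205 to 22693874. Slc32a1 (ENSMUSG00000037771.11) spans 158610767 to 158615748 and Slc12a5 (ENSMUSG00000017740.12) 164960802 to 164999731 of the same chromosome, so 4 of the 6 genes share it. Abat (ENSMUSG00000057880.8) is on chromosome 16 from 8513429 to 8621568 and Slc12a2 (ENSMUSG00000024597.10) on chromosome 18 from 57878678 to 57946821. All are on the plus strand. The antisense gene Gad1os overlaps Gad1 and had 54 UMIs over all kept cells, and the pseudogene Gad1-ps had 8, against 117087 for Gad1.

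The first comparison asks how the 3 classes of WT interneurons differ in these genes. Gad1 differed in every pair of classes, from a mean of 642 CPM (SD 84.6) in SST through 1132 CPM (SD 105) in PVALB to 2129 CPM (SD 311) in NGFC cells (6 libraries each). Gad2 was also highest in NGFC cells, at 2457 CPM (SD 465), but lowest in PVALB cells, at 911 CPM (SD 194). Slc32a1 was lower in NGFC cells than in both other classes, and Abat was higher in PVALB cells than in both. Slc12a5 was called in no pair, and Slc12a2 was called between PVALB and SST cells alone, a call that several settings removed.

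Of the 6 genes, 4 were called between PVALB and SST cells, where 23.1% of all genes tested were (2541 of 11009). Between NGFC and SST cells 3 of the 6 were called, against 24.3% of all genes (2674 of 11009). Between NGFC and PVALB cells 4 were called, against 23.4% (2574 of 11009). That made 11 of 18 tests, 6 higher and 5 lower in the class named first, and DESeq2 called 10. The median log2 change of the 6 genes was 0.0061 from SST to PVALB cells, -0.19 from SST to NGFC cells and -0.00081 from PVALB to NGFC cells, where the medians of all genes were -0.0015, 0.0059 and 0.011.

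Gad1, the first of the enzyme genes, kept the 3 classes apart. Its lowest, median and highest values over the 6 WT libraries were 507, 637 and 739 CPM in SST cells, 954, 1149.8 and 1231 CPM in PVALB cells and 1726, 2135 and 2525 CPM in NGFC cells. The library ranges of the 3 classes did not overlap. By edgeR the log2 change was 0.82 (SE 0.0749, adjusted p 3.12e-08) for PVALB minus SST, 1.74 (SE 0.0760, adjusted p 4.27e-13) for NGFC minus SST and 0.92 (SE 0.0754, adjusted p 6.60e-09) for NGFC minus PVALB, each in the same direction in 6 of 6 libraries. The TH cells counted with the SST class had a mean of 975 CPM (SD 169) over 5 libraries, and SST cells without them 606 CPM (SD 98.0) over 6. No test was run between those.

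Gad2 had its lowest, median and highest values at 866, 1143 and 1232 CPM in SST, 667, 913 and 1166 CPM in PVALB and 1642, 2608 and 2851 CPM in NGFC cells. NGFC libraries lay above all libraries of the other classes, while those of SST and PVALB cells overlapped. By edgeR the changes were -0.26 (SE 0.0683, adjusted p 0.00594) for PVALB minus SST, 1.18 (SE 0.0680, adjusted p 1.90e-11) for NGFC minus SST and 1.44 (SE 0.0698, adjusted p 5.19e-12) for NGFC minus PVALB. The lower level in PVALB cells was lost as a call without any 1 of 5 libraries. By edgeR it was not called without WT cortex replicate 1 (-0.29, adjusted p 0.0120) or 2 (-0.26, 0.0231), or without WT hippocampus replicate 1 (-0.23, 0.0139), 2 (-0.21, 0.0388) or 3 (-0.27, 0.0137). Over all alternatives its adjusted p ran from 0.000162 to 0.0388.

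Because the 2 enzyme genes were read in the same cells, their ratio inside a library does not depend on scaling. The log2 ratio of Gad2 to Gad1 was lower in PVALB than in SST cells by a mean difference of -1.08 (SD 0.168), lower in NGFC than in SST cells by -0.55 (SD 0.171) and higher in NGFC than in PVALB cells by 0.53 (SD 0.218). Each held in 6 of 6 WT libraries. The two-sided exact permutation p was 0.03125 for each, the smallest that 6 pairs can give, and 0.25 after Benjamini-Hochberg adjustment over the 24 ratio tests, so none passed.

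Slc32a1, the vesicle carrier's gene, had values of 292, 358 and 514 CPM in SST, 332, 416 and 528 CPM in PVALB and 232, 312 and 380.5 CPM in NGFC cells (lowest, median, highest). All 3 ranges overlapped between libraries. Within libraries edgeR nevertheless called it lower in NGFC than in SST cells, at -0.31 (SE 0.0638, adjusted p 0.000656), and lower in NGFC than in PVALB cells, at -0.46 (SE 0.0663, adjusted p 1.45e-05). PVALB minus SST was 0.15 (SE 0.0609, adjusted p 0.0633) and was not called. TH cells averaged 416 CPM (SD 52.3) over 5 libraries.

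Abat had values of 173, 232 and 297 CPM in SST, 275, 349 and 395 CPM in PVALB and 163, 200.4 and 264 CPM in NGFC cells (lowest, median, highest). PVALB libraries lay above all NGFC libraries and overlapped with SST libraries. By edgeR it was higher in PVALB than in SST cells, at 0.56 (SE 0.0772, adjusted p 7.42e-06), and lower in NGFC than in PVALB cells, at -0.74 (SE 0.0861, adjusted p 9.07e-07). NGFC minus SST, at -0.18 (SE 0.0830, adjusted p 0.108), was not called. The TH cells inside the SST class averaged 333 CPM (SD 11.6) over 5 libraries and the other SST cells 222 CPM (SD 45.7) over 6, and no test was run between those either.

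Slc12a2, which carries chloride inward, was near the limit of the counts in interneurons. Its lowest, median and highest values were 13.6, 34.7 and 67.7 CPM in SST, 13.9, 18.8 and 49.0 CPM in PVALB and 9.98, 16.4 and 75.0 CPM in NGFC cells, from 1015, 223 and 167 UMIs in all. The ranges overlapped. PVALB minus SST was called by edgeR at -0.65 (SE 0.185, adjusted p 0.00909). That call was lost with DESeq2 (-0.63, adjusted p 0.0344), with a stricter cell filter (-0.66, 0.0124), without WT cortex replicate 2 (-0.62, 0.0527) or 3 (-0.60, 0.0558) and without WT hippocampus replicate 1 (-0.63, 0.0108), and the adjusted p ran from 1.60e-05 to 0.0558 over all alternatives. NGFC minus SST, at -0.59 (SE 0.206, adjusted p 0.0316), was not called. It was called with no filter on genes beyond 1 UMI (-0.62, adjusted p 0.000928), with the SST class taken without its shallowest cluster (-0.73, 0.00417) and without WT hippocampus replicate 2 (-1.0, 0.00156), in a range of 0.000928 to 0.360 over its alternatives. NGFC minus PVALB was 0.064 (SE 0.246, adjusted p 0.887), and -0.31 without WT hippocampus replicate 2.

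WT hippocampus replicate 2 held the highest Slc12a2 value in each of the 3 classes, and its interneurons held the most RNA of mature oligodendrocytes. The 7 markers listed for those cells summed to 3977 CPM in its interneurons, 5.36% of their level in its mature oligodendrocytes. In the other 9 libraries that share was 0.302% to 1.86%. All 7 markers had UMIs there, while Klk6 was at 0 in the interneurons of WT hippocampus replicates 1 and 3, null cortex replicate 1 and null hippocampus replicate 1. Slc12a2 in its interneurons was 67.0 CPM, and the oligodendrocyte level scaled to the same marker share was 57.3 CPM. For SST cells the 2 numbers were 67.7 and 47.3 CPM, for PVALB cells 49.0 and 52.1, and for NGFC cells 75.0 and 79.1. The other 5 WT libraries had 13.5 to 29.5 CPM in interneurons, with scaled levels of 1.91 to 13.2 CPM. In their NGFC cells Slc12a2 was at 9.98 to 27.5 CPM and the scaled levels at 1.27 to 15.4 CPM. The part of such RNA in the Slc12a2 results was not tested, and the sort does not remove oligodendrocytes.

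Slc12a5, which carries chloride outward, had values of 203, 242 and 281 CPM in SST, 163, 235 and 278 CPM in PVALB and 179.7, 201 and 259.9 CPM in NGFC cells (lowest, median, highest), and all ranges overlapped. PVALB minus SST was -0.14 (SE 0.0699, adjusted p 0.142), NGFC minus SST -0.20 (SE 0.0733, adjusted p 0.0354) and NGFC minus PVALB -0.066 (SE 0.0779, adjusted p 0.618) by edgeR. NGFC minus SST passed at an adjusted p under 0.05 and not at 0.01. The log2 ratio of Slc12a5 to Slc12a2 was higher in PVALB than in SST cells by 0.40 (SD 0.396) in 5 of 6 libraries, with an exact permutation p of 0.0625 and an adjusted one of 0.343, and it did not pass.

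Clusters inside the SST class differed in their levels. Of the SST clusters without TH, cluster 22, which carries the marker Chodl, had 1094 CPM of Gad1 (SD 139, 4 libraries) and 118 CPM of Slc12a5 (SD 23.9), while the other SST clusters averaged 414 to 730 CPM and 249 to 322 CPM. For Gad1 the libraries of cluster 3, at 433 to 1130 CPM, overlapped with those of cluster 22, at 960 to 1225 CPM. These clusters were singled out after their values were seen, and no test was run on them.

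**Figure D1:**
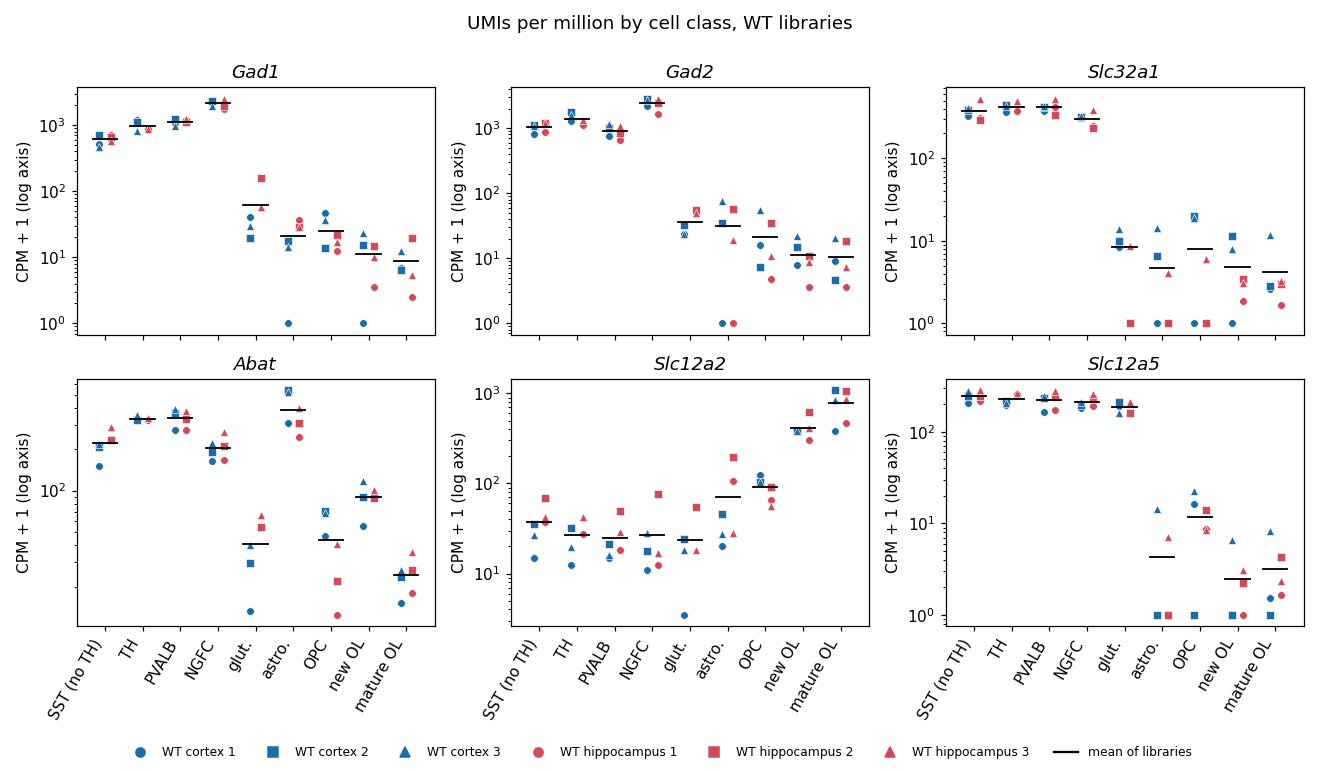
Levels of the 6 genes in CPM plus 1, on a log axis, in 9 cell classes of the WT libraries, with a point per library and a bar at the mean. NGFC libraries lie highest for Gad1 (1726 to 2525 CPM) and Gad2 (1642 to 2851 CPM), and for Slc12a2 mature oligodendrocytes (383 to 1087 CPM) have the highest mean.

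The second comparison sets the WT interneurons against the other cells of the same sort and gives the levels found there. Gad1, Gad2, Slc32a1 and Slc12a5 were far higher in interneurons than in oligodendrocyte-lineage cells and astrocytes, with Gad2 at 1286 CPM (SD 342) against 10.3 CPM (SD 7.46) in the lineage (6 libraries each). Against glutamatergic cells Gad1, Gad2, Slc32a1 and Abat were higher and Slc12a5 was not called. Slc12a2 went the other way, at 657 CPM (SD 228) in the oligodendrocyte lineage and 31.5 CPM (SD 18.4) in interneurons. Abat in astrocytes overlapped with its level in interneurons.

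All 6 genes were called between interneurons and the oligodendrocyte lineage, where 67.7% of genes were called (9517 of 14062). Against astrocytes 4 were called and 41.5% of genes (5082 of 12232), and against glutamatergic cells 4 and 17.0% (2282 of 13406). Between mature oligodendrocytes and their precursors 1 of the 6 was called, against 54.0% (6242 of 11551). That is 15 of 24 tests, 14 higher and 1 lower in interneurons or in mature oligodendrocytes, and 16 by DESeq2. Median log2 changes of the 6 genes were 6.38, 5.56, 3.90 and -0.28 in that order, and those of all genes -0.0082, 0.33, 0.086 and 0.055.

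Gad1 averaged 999 CPM (SD 279) over the 6 libraries in all interneurons, 9.22 CPM (SD 5.78) in the oligodendrocyte lineage, 20.1 CPM (SD 12.6) in astrocytes and 60.5 CPM (SD 57.4) in glutamatergic cells (5 libraries). Gad2 averaged 1286 CPM (SD 342), 10.3 CPM (SD 7.46), 30.3 CPM (SD 30.1) and 35.6 CPM (SD 14.4) in the same classes. Both were low outside interneurons, and the libraries of the oligodendrocyte lineage and of astrocytes overlapped. By edgeR the log2 changes of Gad1 were 6.53 (SE 0.378, adjusted p 1.99e-08) against the oligodendrocyte lineage, 5.82 (SE 0.357, adjusted p 9.97e-58) against astrocytes and 4.85 (SE 0.228, adjusted p 1.41e-12) against glutamatergic cells. Those of Gad2 were 6.79, 5.46 and 5.46, all called. Between mature oligodendrocytes and precursors Gad1 was -0.75 (SE 0.342, adjusted p 0.0533) by edgeR and was not called. It was called under library-size scaling (-1.48, adjusted p 0.000374) and without WT hippocampus replicate 2 (-1.20, 0.00613), and Gad2, at -0.27, under library-size scaling (-0.99, 0.00620). Over the alternatives these adjusted p ran from 0.000374 to 0.233 and from 0.00620 to 0.837. That scaling moved the median of all genes in the comparison from 0.055 to -0.66, and relative to the median Gad1 was -0.82 under it and -0.80 in the main setting, and Gad2 -0.33 and -0.32.

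Slc32a1 averaged 364 CPM (SD 68.2) in interneurons, 3.48 CPM (SD 3.57) in the oligodendrocyte lineage, 7.43 CPM (SD 4.73) in glutamatergic cells and 3.67 CPM (SD 5.27) in astrocytes, the last from 4 UMIs. Among those last 3 classes the libraries overlapped. Its edgeR log2 changes were 6.59 (SE 0.324, adjusted p 5.98e-09), 5.46 (SE 0.240, adjusted p 5.22e-13) and 6.32 (SE 0.464, adjusted p 1.57e-40) in that order.

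Abat was spread over more classes. From the highest mean it ran through astrocytes at 387 CPM (SD 121), interneurons at 248 CPM (SD 37.2), choroid plexus cells at 137 CPM (SD 51.5) over 3 libraries and new oligodendrocytes at 89.0 CPM (SD 20.4). Precursors at 42.7 CPM (SD 23.9), glutamatergic cells at 39.8 CPM (SD 20.7) and mature oligodendrocytes at 23.1 CPM (SD 7.25) followed, and neighbours in this order overlapped. The astrocyte libraries, with lowest, median and highest values of 245, 354 and 539 CPM, overlapped those of interneurons, at 189, 249 and 293 CPM. By edgeR interneurons minus astrocytes was -0.49 (SE 0.235, adjusted p 0.0677) and was not called. It was called under library-size scaling (-0.67, adjusted p 0.00207) and with the stricter cell filter (-0.73, 0.00119), in a range of 0.00119 to 0.436 over the alternatives. Against the oligodendrocyte lineage it was 2.38 (SE 0.129, adjusted p 1.17e-08) and against glutamatergic cells 2.94 (SE 0.219, adjusted p 1.91e-09), both called. Between mature oligodendrocytes and precursors the change of 0.11 was not called.

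Slc12a2 had its highest means in the later stages of the oligodendrocyte lineage. Lowest, median and highest values were 383, 859.9 and 1087 CPM in mature oligodendrocytes, 299.7, 390.1 and 616 CPM in committed or new ones and 55.2, 96.7 and 122 CPM in precursors. The first of these stages overlapped with the middle one, which lay above all precursor libraries. The clusters of the middle stage differed. Clusters 8 and 14 averaged 101 and 185 CPM (886 and 653 cells), and clusters 15 and 26 averaged 766 and 986 CPM (391 and 275 cells). Choroid plexus cells averaged 243 CPM (SD 292) over 3 libraries, microglia 159 CPM (SD 67.5) over 4 and precursors 89.7 CPM (SD 25.3) over 6. Astrocytes at 70.0 CPM (SD 69.5) from 32 UMIs, interneurons at 31.5 CPM (SD 18.4) and glutamatergic cells at 22.8 CPM (SD 18.8) followed. Neighbours in this order overlapped. The edgeR log2 change from precursors to mature oligodendrocytes was 4.0 (SE 0.225, adjusted p 7.79e-21), and relative to the median of all genes it was 3.95 both in the main setting and under library-size scaling. Interneurons minus oligodendrocyte lineage was -4.89 (SE 0.202, adjusted p 2.03e-09), and -5.06 without WT hippocampus replicate 2, the library with the most oligodendrocyte RNA in its interneurons (marker share 5.36%). Against astrocytes it was -0.51 (SE 0.348, adjusted p 0.215) and against glutamatergic cells 0.67 (SE 0.260, adjusted p 0.0610), neither of them called.

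Slc12a5 was a gene of neurons here, glutamatergic ones included. Its lowest, median and highest values were 195, 237 and 272 CPM in interneurons and 158, 188 and 209 CPM in glutamatergic cells, which overlapped. Precursors averaged 10.8 CPM (SD 7.40), mature oligodendrocytes 2.18 CPM (SD 2.71) and astrocytes 3.24 CPM (SD 5.53) from 4 UMIs. Interneurons minus glutamatergic cells was 0.47 (SE 0.166, adjusted p 0.0417) by edgeR and passed at an adjusted p under 0.05 and not at 0.01. Against the oligodendrocyte lineage it was 6.24 (SE 0.356, adjusted p 1.78e-08) and against astrocytes 5.66 (SE 0.478, adjusted p 7.95e-31). From precursors to mature oligodendrocytes the change of -1.52 (SE 0.528, adjusted p 0.0111) was not called by edgeR. It was called by DESeq2 (-1.80, adjusted p 0.00422), under library-size scaling (-2.24, 0.000389), at clustering resolution 1.4 (-1.93, 0.00262) and with Scrublet's doublets removed (-1.92, 0.00252), in a range of 0.000389 to 0.0651. Relative to the median of all genes it was -1.58 in the main setting and under library-size scaling alike.

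The share of cells with at least 1 UMI was compared after thinning each cell to 1000 UMIs, since depth sets the unthinned share. Thinning left out 494 of 7864 WT interneurons and 1211 of 8632 oligodendrocyte-lineage cells as too shallow, and the median depths were 5872 and 2633.5 UMIs. Mean thinned shares over the 6 WT libraries were 55.0% (SD 7.42) for Gad1, 66.7% (SD 7.72) for Gad2, 29.97% (SD 5.21) for Slc32a1, 21.0% (SD 2.78) for Abat, 2.60% (SD 1.09) for Slc12a2 and 21.6% (SD 2.95) for Slc12a5. With all UMIs they were 88.7%, 94.0%, 76.2%, 65.0%, 12.8% and 68.4%. In the oligodendrocyte lineage, taken as the background of Gad1, Gad2 and Slc32a1 alone, the thinned shares of these were 1.04%, 0.98% and 0.315%. Abat had 4.03% there, Slc12a5 0.323% and Slc12a2 38.5%. Unthinned the shares of the 6 genes were 2.85%, 3.13%, 1.25%, 12.9%, 0.915% and 65.0% in the same order. By class the thinned shares of Gad1 and Gad2 were 42.8% and 62.9% in SST, 62.0% and 57.7% in PVALB and 84.6% and 86.3% in NGFC cells.

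Both enzyme genes were found together in some thinned cells and neither in others. Pooled over WT libraries, both had a UMI in 27.0% of SST, 38.1% of PVALB and 73.9% of NGFC cells, and neither had one in 21.5%, 14.4% and 2.70%. At 1000 UMIs a cell with neither gene is not shown to lack them.

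The third comparison sets hippocampus against cortex within each class of WT interneurons. No gene of the 6 was called in any class. Slc12a2 had its higher levels in hippocampus in SST and PVALB cells, with no overlap in the first, and it was called in SST cells when replicate numbers entered the model. Markers of mature oligodendrocytes in these cells were also higher in hippocampus for each replicate number. The WT libraries of the regions overlapped for the other 5 genes, Abat in SST cells excepted.

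In SST cells 0 of the 6 were called by edgeR where 0.0418% of genes were (5 of 11975), in PVALB cells 0 where 0.0341% were (3 of 8796), and in NGFC cells 0 where 0% were (0 of 7854). At an unadjusted p under 0.05 edgeR had 1, 1 and 0 of the 6 and 895, 382 and 207 of all genes, and DESeq2 called 0 of the 6 and 145, 22 and 4 genes. A block on the replicate number treats libraries of the same number as pairs across regions. With it, edgeR called 1 of the 6 in SST cells, Slc12a2, among 370 of 12472 genes. In PVALB and NGFC cells that block called 57 of 9297 and 6 of 8448 genes and 0 of the 6, with Slc12a2 in PVALB cells at an unadjusted p under 0.05 (0.95, SE 0.308, p 0.00709, adjusted p 0.199). The calls among all genes in the fit without a block fell to 0 in SST and in PVALB cells without WT cortex replicate 1.

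Slc12a2 was the gene at an unadjusted p under 0.05 in both SST and PVALB cells. SST cells had 13.6, 34.1 and 25.3 in WT cortex, 35.3, 67.7 and 41.3 in WT hippocampus, 8.89 and 26.3 in null cortex and 16.9 and 40.6 in null hippocampus (CPM, replicates in order). All WT hippocampal values were above all WT cortical ones. By edgeR the change was 0.93 (SE 0.379, p 0.0362, adjusted p 0.574). With the replicate number as a block it was 0.94 (SE 0.208, adjusted p 0.00913), which passed, and its adjusted p over alternatives ran from 0.00913 to 1. Without WT hippocampus replicate 2, which had the most oligodendrocyte RNA in its interneurons (marker share 5.36%), it was 0.57 (SE 0.349, adjusted p 0.749). Mature oligodendrocyte markers in SST cells were also higher in hippocampus for each replicate number. Their share was 2.05%, 4.43% and 1.13% in WT hippocampus and 0.504%, 1.23% and 0.394% in WT cortex. The oligodendrocyte level of Slc12a2 scaled to that share was 9.60, 47.3 and 9.92 CPM against 1.93, 13.3 and 3.33 CPM. The part of this RNA in the change was not tested. The regions also differed in the make-up of the SST class: cluster 7, the shallow one, held 481 of 3453 cells in WT cortex and 675 of 1485 in WT hippocampus, 609 of them in replicate 2. It averaged 67.4 CPM of Slc12a2 over WT libraries, the highest mean of the SST clusters. That mean held 110 and 131 CPM from 13 and 12 cells in replicate 1 of WT cortex and WT hippocampus. In the other WT libraries cluster 7 had 24.6 to 56.3 CPM. In WT hippocampus replicate 2 it had 38.9 CPM, below clusters 3 (112 CPM) and 5 (76.2 CPM). With the class taken without cluster 7, an alternative chosen after seeing the data, the change was 1.21 (SE 0.473, adjusted p 0.605).

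PVALB cells had Slc12a2 at 13.9, 20.3 and 14.9 in WT cortex, 17.2, 49.0 and 28.3 in WT hippocampus, 17.7 and 23.5 in null cortex and 9.13 and 18.4 in null hippocampus, from 4 to 95 UMIs per library, and the WT regions overlapped. The change was 0.98 (SE 0.379, p 0.0264, adjusted p 1) by edgeR and 0.54 without WT hippocampus replicate 2. NGFC cells had 9.98, 16.8 and 27.5 in WT cortex, 11.5, 75.0 and 16.1 in WT hippocampus, 22.7 in null cortex and 4.16 and 26.6 in null hippocampus, from 3 to 235 UMIs per library. There the change was 0.88 (SE 0.732, p 0.258, adjusted p 1) by edgeR, and without that library it was -0.44. Of the clusters in the NGFC class, cluster 17 drew 516 of its 607 cells from that library, which had 518 NGFC cells, while cluster 4 held over 90% of the NGFC cells in each other library, cortical and hippocampal. Cluster 17 averaged 75.6 CPM of Slc12a2 over 2 WT libraries and cluster 4 9.59 CPM over 5. Those of cluster 17 were 75.7 CPM in WT hippocampus replicate 2 and 75.4 CPM in replicate 3, the latter from 33 cells. Null hippocampus replicate 2 had 258 CPM in cluster 17, from 34 cells. The part of oligodendrocyte RNA or of cluster make-up in these values was not tested.

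For the other 5 genes the region changes lay between -0.18 and 0.27 over the 3 classes. Gad1 was 0.051, 0.12 and -0.056 in SST, PVALB and NGFC cells, and Gad2 0.027, -0.18 and -0.14. Slc32a1 was -0.062, 0.067 and -0.12, and Abat 0.27, -0.065 and 0.20. Slc12a5 was 0.011, 0.12 and 0.25. The library values behind these are given with the genotypes.

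The log2 ratio of Slc12a5 to Slc12a2 was lower in hippocampus than in cortex by -0.95 in SST and -0.76 in PVALB cells, with no overlap of the 3 and 3 libraries in either. The two-sided exact permutation p was 0.1 for each, the smallest that 3 against 3 can give, and 0.343 after adjustment. The share of mature oligodendrocyte markers was higher in hippocampus in both classes for each replicate number. In PVALB cells it was 1.45%, 4.87% and 1.82% against 0.118%, 1.36% and 0.583% in cortex, and its part was not tested. Without WT hippocampus replicate 2 the differences of the ratio were -0.66 and -0.43. In NGFC cells the difference of -0.25 had an exact permutation p of 1, and it was 0.55 without that library.

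The fourth comparison sets null against WT mice within a region and class, which addresses what loss of Grin1 goes with in each class. None of the 6 genes was called. In PVALB cells Abat was above all WT values in every null library of both regions, and Gad1 in both null cortical ones. Null and WT cells of a class came in part from different clusters. Slc12a2 in hippocampal PVALB cells had a lower mean in the null libraries, with overlap and as few as 4 UMIs in a library.

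Grin1 itself, on chromosome 2 from 25291181 to 25319187, serves as a check of the labels. SST cells had 153, 255 and 233 in WT cortex, 120.2, 175 and 159 in WT hippocampus, 36.7 and 28.6 in null cortex and 21.0 and 21.8 in null hippocampus (CPM, replicates in order). PVALB cells had 112, 212 and 178 in WT cortex, 103, 165 and 122 in WT hippocampus, 42.5 and 21.0 in null cortex and 22.8 and 17.0 in null hippocampus. NGFC cells had 116, 184 and 168 in WT cortex, 115, 111 and 133 in WT hippocampus, 36.3 in null cortex and 33.2 and 15.5 in null hippocampus. Every null library was below every WT library of its class and region. The edgeR log2 changes in cortex and hippocampus were -2.73 (SE 0.327, adjusted p 0.0302) and -2.80 (SE 0.329, adjusted p 0.0244) in SST cells, -2.62 (SE 0.427, adjusted p 0.0295) and -2.82 (SE 0.431, adjusted p 0.105) in PVALB cells, and -2.10 (SE 0.555, adjusted p 1) and -2.37 (SE 0.428, adjusted p 0.958) in NGFC cells. None of these was a call at an adjusted p under 0.01, although null and WT libraries did not overlap in any of them. Which exons the null allele lacks, relative to the counted end of the transcript, is not known from the files.

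In SST cells 0 of the 6 genes were called by edgeR in cortex, where 0% of genes were (0 of 12848), and 0 in hippocampus, where 0% were (0 of 12848). In PVALB cells 0 were called in cortex, where 0.0103% of genes were (1 of 9703, and not Grin1), and 0 in hippocampus, where 0% were (0 of 9703). In NGFC cells 0 were called in cortex and 0 in hippocampus, with 0% of genes in each (0 of 9690). At an unadjusted p under 0.05 edgeR had 2 of the 6 in cortical and 1 in hippocampal PVALB cells and 0 in the SST and NGFC comparisons, and DESeq2 called 0 of the 6 throughout. Of all genes, 283 and 484 in SST, 364 and 287 in PVALB and 142 and 319 in NGFC cells had an unadjusted p under 0.05 in cortex and hippocampus, and DESeq2 called 2 and 2, 16 and 1, and 0 and 1. With the replicate number as a block edgeR called 0 of the 6 as well, and 5 of 9703 genes in cortical PVALB cells and 0 in the other comparisons. At an unadjusted p under 0.05 that block had Slc32a1 in cortical and hippocampal SST cells, Slc12a2 in hippocampal SST (-0.79, p 0.0103, adjusted p 0.368) and PVALB cells (-1.25, p 0.00517, adjusted p 0.547), Abat in PVALB cells of both regions and Gad1 in those of cortex (0.61, p 0.0147, adjusted p 0.564). The share of all genes at that limit under the block is not given here, so these genes are not read as a result. Filtering of cells weighed most on replicate 2 of the null groups: it kept 2578 of 2898 cells in null cortex replicate 2 and 4055 of 4436 in null hippocampus replicate 2, against 3930 of 3960 and 3135 of 3159 in replicate 3 of WT cortex and WT hippocampus, the WT libraries that lost the largest shares. With the stricter cell filter the changes of Abat in PVALB cells were 0.74 in cortex and 0.55 in hippocampus and those of Gad1 0.64 and 0.32. The null cortical NGFC group is 1 library of 97 cells, replicate 2, whose spread is assumed to be that of the other groups.

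Abat in PVALB cells was above all WT values in the 4 null libraries. These cells had 275, 366 and 395 in WT cortex, 276, 332 and 379 in WT hippocampus, 609 and 530.5 in null cortex and 461 and 508 in null hippocampus (CPM, replicates in order). The edgeR changes were 0.74 (SE 0.265, p 0.0145, adjusted p 0.929) in cortex and 0.55 (SE 0.268, p 0.0584, adjusted p 1) in hippocampus, and neither was called. With the replicate number as a block they were 0.86 (SE 0.231, p 0.00242, adjusted p 0.269) and 0.67 (SE 0.234, p 0.0129, adjusted p 0.590), not called either. SST cells had 173, 215 and 231 in WT cortex, 249, 233 and 297 in WT hippocampus, 218 and 215 in null cortex and 290.4 and 296 in null hippocampus, and genotypes overlapped in both regions, with changes of 0.079 and 0.20. NGFC cells had 163, 189 and 220.0 in WT cortex, 167, 212 and 264 in WT hippocampus, 246 in null cortex and 238 and 286 in null hippocampus, and changes of 0.36 and 0.31, with overlap in hippocampus and the 1 null cortical value above the WT ones.

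Gad1 in PVALB cells was at 1084, 1226 and 954 in WT cortex, 1175, 1124 and 1231 in WT hippocampus, 1516 and 1834 in null cortex and 1134 and 1839 in null hippocampus (CPM). The edgeR changes were 0.64 (SE 0.263, p 0.0281, adjusted p 1) in cortex, where libraries did not overlap, and 0.33 (SE 0.264, p 0.230, adjusted p 1) in hippocampus, where they did. SST cells had 610.2, 739 and 507 in WT cortex, 723, 654 and 620.1 in WT hippocampus, 629 and 1000.1 in null cortex and 663 and 964 in null hippocampus, with changes of 0.41 and 0.31. In both regions replicate 2 of the null group was above all WT values and replicate 1 was among them. NGFC cells had 2339, 2327 and 1914 in WT cortex, 1726, 1943 and 2525 in WT hippocampus, 2847 in null cortex and 2299.6 and 2897 in null hippocampus, with changes of 0.38 and 0.35.

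The PVALB class was made of clusters 1, 24 and 31 in other proportions in null cortex. WT cortex had 1135, 114 and 38 cells in them and null cortex 130, 76 and 65, while WT hippocampus had 194, 105 and 5 and null hippocampus 181, 103 and 9. Over WT libraries these clusters averaged 1033, 1466 and 2062 CPM of Gad1 and 321, 389 and 453 CPM of Abat, so the clusters fuller in null cortex were those with higher levels. Inside cluster 1, WT cortex had 992, 1158 and 895 CPM of Gad1 and null cortex 1070 and 1342, which overlap, and for Abat 266, 341 and 388 against 537 and 441, which do not. The other clusters had at least 10 cells in null cortex in replicate 2 alone. Its Gad1 was 1828 CPM in cluster 24, against 1296, 1465 and 1435 in WT cortex, and 2749 CPM in cluster 31, against 2052, 2283 and 1851, above the WT values in both. Its Abat was 480.4 CPM in cluster 24, among the WT cortical values of 285, 483 and 497, and 752 CPM in cluster 31, above those of 392, 525 and 443. At clustering resolution 0.6 the null cortical changes in the class were 0.32 for Gad1 and 0.55 for Abat and at resolution 1.4 they were 0.62 and 0.72, none of them called by edgeR, within adjusted p of 0.564 to 1 and 0.269 to 1 over the alternatives. The values inside clusters were looked at after the class results were seen and were not tested.

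The SST class held its clusters in other proportions too. Cluster 22, with 1094 CPM of Gad1 and 118 CPM of Slc12a5, made up 229 of 3453 SST cells in WT cortex and 152 of 846 in null cortex, and the TH cells of cluster 13, with 975 and 226 CPM, 350 and 179. Of the null cortical ones 149 and 173 were in replicate 2. In hippocampus, cluster 7 made up 675 of 1485 WT and 75 of 953 null SST cells, and cluster 3 made up 375 and 414. These clusters averaged 457 and 730 CPM of Gad1 over WT libraries. In NGFC cells of hippocampus cluster 17 held 554 of 1043 WT cells, 516 of them in replicate 2, and 35 of 739 null cells. It averaged 1602 CPM of Gad1 and cluster 4 2190 CPM. Without WT hippocampus replicate 2 the change of Gad1 in those cells was 0.30 (SE 0.292, adjusted p 1). The part of these proportions in the genotype values was not tested.

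Gad2 differed less between genotypes than its libraries did among themselves. SST cells had 866, 1167 and 1118 in WT cortex, 904, 1195 and 1232 in WT hippocampus, 1066 and 959.5 in null cortex and 1030.1 and 1096 in null hippocampus (CPM). PVALB cells had 748, 997 and 1166 in WT cortex, 667, 828 and 1060.1 in WT hippocampus, 860.5 and 895 in null cortex and 858 and 836 in null hippocampus. NGFC cells had 2222, 2851 and 2744 in WT cortex, 1642, 2472 and 2810 in WT hippocampus, 2221 in null cortex and 1941 and 2611 in null hippocampus. Null and WT libraries overlapped except in cortical NGFC cells, where the 1 null value, 2221 CPM, lay just under the lowest WT value, 2222 CPM. The 6 changes lay between -0.23 and -0.0039. With the replicate number as a block 5 of them turned positive, at 0.037 to 0.17, and that in cortical NGFC cells was -0.32.

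In null PVALB cells of cortex the log2 ratio of Gad2 to Gad1 was -0.82 and -1.03 against -0.54, -0.30 and 0.29 in WT. The difference was -0.74, with no overlap and a two-sided exact permutation p of 0.2 (0.533 adjusted). In NGFC cells it was -0.34 in hippocampus, with no overlap and an exact p of 0.2, and -0.60 in cortex, with an exact p of 0.25, the smallest that 1 against 3 can give. The smallest that 2 against 3 can give is 0.1. None of the 24 ratio tests passed after adjustment.

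Slc32a1 in SST cells was at 328, 389 and 405 in WT cortex, 315, 292 and 514 in WT hippocampus, 482 and 594 in null cortex and 362 and 618 in null hippocampus (CPM). In cortex both null values were above all WT values, with a change of 0.54 (SE 0.302, p 0.101, adjusted p 1) by edgeR, and in hippocampus the change was 0.41 with overlap. With the replicate number as a block these were 0.68 (SE 0.235, p 0.0148, adjusted p 0.890) and 0.58 (SE 0.242, p 0.0374, adjusted p 0.428), not called. PVALB cells had 376, 416 and 426 in WT cortex, 417, 332 and 528 in WT hippocampus, 457 and 613 in null cortex and 354 and 583 in null hippocampus, with changes of 0.42 and 0.14. Both null cortical values lay above the WT ones, and the hippocampal ones overlapped. NGFC cells had 306, 318 and 327 in WT cortex, 242, 232 and 380.5 in WT hippocampus, 506 in null cortex and 287 and 468 in null hippocampus, with changes of 0.67 and 0.42. The 1 null cortical value was above the WT ones.

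Slc12a2, whose library values are given with the regions, had log2 changes of -0.31 in cortex and -0.66 in hippocampus in SST cells, and of 0.41 and -1.06 in PVALB cells. In hippocampal PVALB cells the edgeR result was -1.06 (SE 0.438, p 0.0295, adjusted p 1), from 4 and 76 UMIs in the null and 6, 27 and 25 in the WT libraries, whose values overlapped. Without WT hippocampus replicate 2, whose interneurons had an oligodendrocyte marker share of 5.36%, that change was -0.60 (SE 0.429). In NGFC cells the changes were 0.24 and -0.96, and the hippocampal one was 0.35 without that library. With the replicate number as a block edgeR gave -0.80 and -1.17, the latter with p 0.0574 and adjusted p 0.419. In every class the null hippocampal value was below the WT one for each replicate number that both genotypes have. The change in hippocampal SST cells was -0.30 without WT hippocampus replicate 2. The part of the oligodendrocyte RNA was not tested.

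Slc12a5 in SST cells was at 203, 243 and 267 in WT cortex, 223, 242 and 281 in WT hippocampus, 186 and 240.0 in null cortex and 135 and 274 in null hippocampus (CPM). PVALB cells had 163, 233 and 242 in WT cortex, 172, 238 and 278 in WT hippocampus, 248 and 283 in null cortex and 185 and 317 in null hippocampus. NGFC cells had 179.7, 194 and 208 in WT cortex, 189, 225 and 259.9 in WT hippocampus, 197 in null cortex and 107 and 224 in null hippocampus. Null hippocampus replicate 1 was the lowest of its region in SST and NGFC cells, and in cortical PVALB cells both null values were above the WT ones. The changes in cortex and hippocampus were -0.15 and -0.26 in SST, 0.34 and 0.12 in PVALB and 0.023 and -0.43 in NGFC cells. The log2 ratio of Slc12a5 to Slc12a2 in hippocampal PVALB cells was 4.18 and 4.10 in the null and 3.22, 2.26 and 3.27 in the WT libraries. That difference of 1.22 had an exact permutation p of 0.1 (0.343 adjusted), and it was 0.89 without WT hippocampus replicate 2. The other genotype differences of this ratio were 0.37 and 0.44 in SST cells of cortex and hippocampus, -0.045 in cortical PVALB cells, and -0.34 and 0.59 in NGFC cells, with exact p of 0.5 or more. Without that library the hippocampal ones were 0.15 in SST and -0.21 in NGFC cells.

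**Figure D2:**
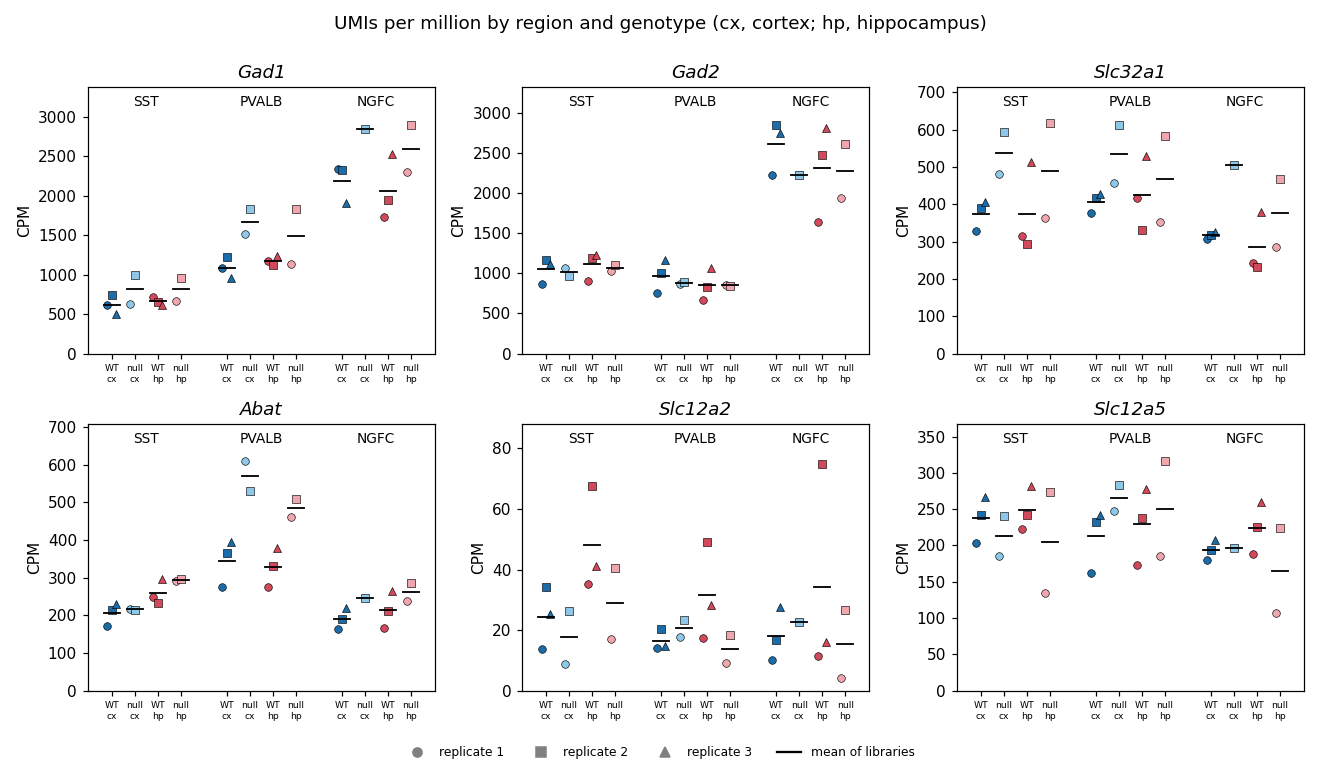
Levels of the 6 genes in CPM by region and genotype in SST, PVALB and NGFC cells, with a point per library and a shape per replicate. Abat in PVALB cells lies at 461 to 609 CPM in the null libraries and at 275 to 395 CPM in the WT ones.

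Shares of cells with a UMI, thinned to 1000, were also compared between regions and genotypes in 54 tests over the 3 classes. The smallest two-sided exact permutation p was 0.1, which is the least that 3 against 3 or 2 against 3 libraries can give, and the lowest adjusted value was 0.794. Median depths differed between the genotypes, at 6913 and 3254.5 UMIs in WT and 12847 and 14022 in null interneurons of cortex and hippocampus. Thinning left out 199, 295, 89 and 23 cells of those 4 groups.

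The last comparison asks whether the effect of genotype differs between regions. No gene of the 6 was called in any class, and the largest difference was that of Slc12a2 in PVALB cells. In SST, PVALB and NGFC cells edgeR called 0 of the 6 in each, where 0%, 0% and 0% of genes were called (0 of 12848, 0 of 9703 and 0 of 9690). At an unadjusted p under 0.05 edgeR had 0, 1 and 0 of the 6 and 66, 112 and 36 of all genes, and DESeq2 called 0 of either. The 1 was Slc12a2 in PVALB cells, at -1.47 (SE 0.599, p 0.0274, adjusted p 1) by edgeR and -1.01 without WT hippocampus replicate 2. Interneurons of that library had an oligodendrocyte marker share of 5.36%, and the part of such RNA was not tested. Over the 6 genes the differences lay between -0.35 and 0.13 in SST, -1.47 and 0.12 in PVALB and -1.20 and 0.22 in NGFC cells. The lowest of each class was Slc12a2, which without that library was -0.036 in SST and 0.14 in NGFC cells. With the replicate number as a block the ends in NGFC cells were -0.37 (Slc12a2) and 0.44 (Gad2).

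**Figure D3:**
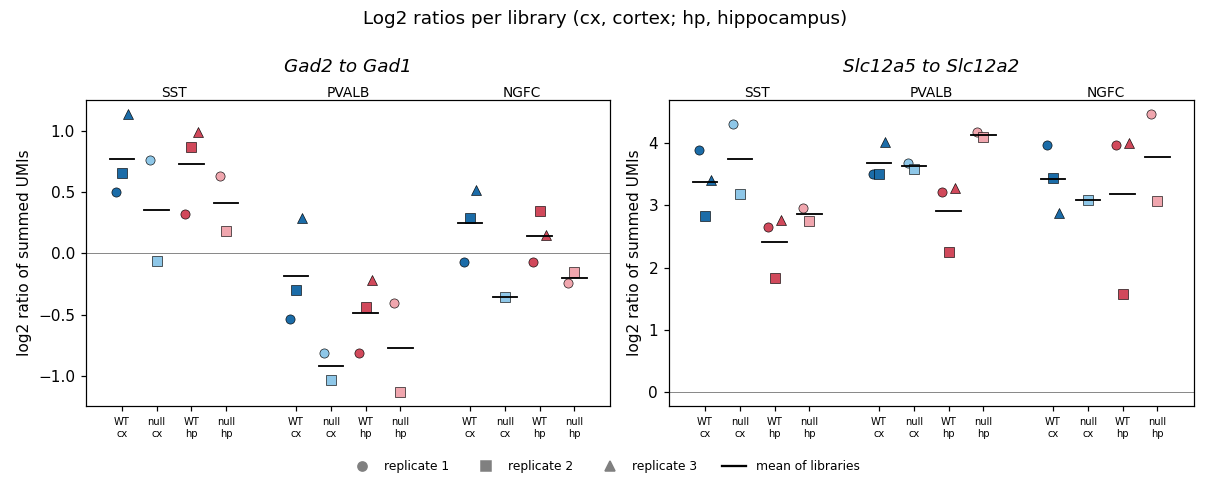
Log2 ratios of Gad2 to Gad1 and of Slc12a5 to Slc12a2 per library in SST, PVALB and NGFC cells, by region and genotype. In WT libraries the Gad2 to Gad1 ratio is lower in PVALB (-0.82 to 0.29) than in SST cells of the same library (0.32 to 1.14).

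A list of 41 genes around the same pathway (among them genes of GABA breakdown and glutamate supply, other cation chloride cotransporters with their kinases, and other chloride and bicarbonate carriers) puts the 6 genes beside their neighbours. Only the 6 genes were taken out of the clustering features, so listed genes may have helped to form the classes. Their calls between classes are not shown to be independent of the clustering. Of the listed genes tested, 5 were called higher and 3 lower in PVALB than in SST cells (of 28), 9 and 4 in NGFC than in SST cells (of 28), and 6 and 7 in NGFC than in PVALB cells (of 28). In interneurons 16 were higher and 11 lower than in the oligodendrocyte lineage (of 34), 12 and 12 than in astrocytes (of 32) and 11 and 5 than in glutamatergic cells (of 31), and 11 and 12 in mature oligodendrocytes than in precursors (of 30). The shares of all genes called in these 7 comparisons were 23.1%, 24.3%, 23.4%, 67.7%, 41.5%, 17.0% and 54.0% in the same order. Between regions, between genotypes and in the difference of both, edgeR called 0 in 75, 166 and 83 tests, with 7, 5 and 0 at an unadjusted p under 0.05, and DESeq2 called 0 in each. Their median log2 changes in the 7 class comparisons were 0.20, 0.053, 0.081, 0.27, -0.30, 0.33 and -0.24, and those of all genes -0.0015, 0.0059, 0.011, -0.0082, 0.33, 0.086 and 0.055.

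The pathway genes named here were among the 4 with the largest called change in their comparison. From SST to PVALB cells these included the anoctamin gene Ano3 (-2.88), the glutamate transporter gene Slc1a2 (-1.18) and the carbonic anhydrase gene Car2 (0.82), and from SST to NGFC cells Slc1a3 (2.11), Car2 (1.58) and the glutamine synthetase gene Glul (1.39). From PVALB to NGFC cells Ano3 (2.49), Slc1a2 (1.60) and Glul (1.01) were among them. Some of these levels were low: Ano3 averaged 15.2, 2.05 and 10.6 CPM in SST, PVALB and NGFC cells. Slc1a3 averaged 2.81 CPM in SST and 10.5 CPM in NGFC cells, against 2529 CPM in astrocytes. Slc1a2 averaged 45.6, 24.8 and 58.1 CPM in SST, PVALB and NGFC cells, against 13674.5 CPM in astrocytes. The part of astrocyte RNA in these values was not tested. Interneurons differed from the oligodendrocyte lineage most in Slc12a4 (-5.55), Slc4a10 (5.17) and Car2 (-5.04). Against astrocytes the list was led by Slc1a3, which is one of the markers that named astrocytes and so no result, then Slc38a3 (-9.09) and Aldh1a1 (-8.72), with Ano3 listed at 0 in the astrocytes of all 6 libraries. Against glutamatergic cells Slc1a2 (-3.67), Aldh1a1 (-2.81) and Ano3 (-2.62) were lower in interneurons. Aldh1a1 was near the limit of the counts in both, at 0.894 CPM in interneurons and 4.22 CPM (SD 3.21) in glutamatergic cells. In mature oligodendrocytes Car2 (6.56) and Glul (3.47) were higher and Ano3 (-4.87) and Slc4a10 (-3.82) lower than in precursors. Car2 was among the leading genes of cluster 11, a mature oligodendrocyte cluster, so its change is not read as independent of the classes. Ano3 and Slc4a10 averaged 0.397 and 0.893 CPM in mature oligodendrocytes and 21.3 and 22.2 CPM in precursors.

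Likeness of profiles was described by Pearson's r of log2 CPM plus 1 over 54 WT sums of library and class (12 classes), against 11528 genes. These sums share libraries and are not independent, so no p is given. Gad1 was most like Lhx6 (0.927), Kcns3 (0.926) and Gad2 (0.922), and the 3 genes most like Gad2 included Lhx6 (0.934) and Sp9 (0.932), where Lhx6 is one of the listed markers of MGE interneurons. For Slc32a1 the closest 3 included Dlx5 (0.955) and Kcns3 (0.940). Abat, with its astrocyte level, had Enho (0.876) and Pgm2 (0.856) among its closest 3. Slc12a2 was nearest to Cers2 (0.864), Rap1a (0.862) and Elf1 (0.861), and Slc12a5 to AI593442 (0.967), Sult4a1 (0.956) and Adarb1 (0.95).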

How the data were processed

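The authors made UMI counts from sorted cells with Cell Ranger, version 2.1.1 by their notes and 3.0.2 by the matrix headers, against mm10 with extended gene ends, and deposited counts in 4 matrices, each pooling the libraries of a region and genotype (43348 genes, 26987 barcodes). The deposited values are unscaled UMI counts. Libraries were told apart by barcode suffix and matched to replicates by the cell numbers in the methods. Over 21 pairs of libraries of the same chemistry at most 12 barcodes were shared, and the largest share of the smaller library, in another pair, was 0.552% (1 of 181).

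Cells with 200 to 6000 genes and under 30% of UMIs from the 37 mitochondrial genes were kept, 26201 in all: 9037 of 9088 in WT cortex, 9953 of 9980 in WT hippocampus, 2755 of 3079 in null cortex and 4456 of 4840 in null hippocampus. Scrublet at a doublet rate of 0.06 marked 253, which were kept in the main setting and removed in an alternative. Seurat 5.3.0 in R 4.3.3 took 2000 variable features, of which 1994 remained once the 6 genes were taken out, joined the matrices on 25 dimensions of a canonical correlation analysis and gave 34 clusters at resolution 1. A cluster took the name of a class when at least 3 of that class's listed markers, the first among them, were both above their mean over clusters and at 20 CPM or more. It stayed unnamed when its 10 leading genes held more markers of another class, or when its median UMIs were under 1/3 of its own libraries' with no own marker among those 10. This rule was set after the clusters were seen. The 4 unnamed clusters, 19, 23, 30 and 33, made up 4.15%, 1.96%, 0.808% and 0.0443% of WT cortex, 0.653%, 0.944%, 0.412% and 0.533% of WT hippocampus, 0.690%, 2.65%, 0.980% and 0% of null cortex, and 1.23%, 1.30%, 0.561% and 0.135% of null hippocampus. SST cluster 7 is shallow, with median UMIs 0.578 of its libraries'.

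UMIs were summed per library and class where at least 10 cells were present. edgeR 4.0.16 tested the sums by quasi-likelihood with TMM scaling and filterByExpr, with the library as a block for classes and no block for regions and genotypes. Benjamini-Hochberg adjustment was over all genes tested. Null and WT groups of a class shared 1 model, and null cortical NGFC replicate 1, with 4 cells, was left out. Whether replicate numbers pair the libraries was checked by correlating deviations from the group means between regions: r was 0.790, 0.721 and 0.441 for WT SST cells, 0.634, 0.634 and 0.410 for PVALB and 0.616, 0.515 and 0.231 for NGFC cells, so the numbers pair them, as chemistry does for replicate 1.

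Alternatives were DESeq2 1.42.0, library-size scaling, no filter beyond 1 UMI, the replicate block, resolutions 0.6 and 1.4, cells with at least 1000 genes and under 10% mitochondrial UMIs, doublets removed, an adjusted p under 0.05, sums of at least 20 cells, mitochondrial genes left out, a model of the 2 compared groups alone, and leaving out each library. Ratios of summed UMIs, with 0.5 added, and shares of cells were compared by two-sided exact permutation over libraries. The rest was done in Python 3.11.15 (scanpy 1.11.5, pandas 2.3.3, scipy 1.17.1, numpy 2.4.6, matplotlib 3.10.9). The 6 genes, the marker lists and the pathway list were chosen with earlier results of these data known. The text names the 6 genes in every comparison and Grin1 as a check. Other genes it names come from the called pathway genes (the 4 with the largest change where more were called) and from the 3 genes most like each of the 6, and not all of these are named.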

Additional observations from a re-analysis of the deposited data

Results flagged for a closer look

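In the WT levels of the 6 genes by class, 60 groups held 4 to 6 libraries and enough values to ask whether 1 library lay far from the rest. In 7 of them the gap from the extreme library to its nearest neighbour, divided by the whole range, was past the 95% limit of Dixon's test. Chance gives about 1 in 20 groups. No cause was tested.

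WT hippocampus replicate 2 was the far one in 3 groups. Its Slc12a2 was 75.0 CPM in NGFC cells (80 UMIs), with a gap of 0.730 of the range, and 616 CPM in committed or new oligodendrocytes (991 UMIs), with a gap of 0.650. Its Gad1 in glutamatergic cells was 160 CPM, from 3 UMIs, with a gap of 0.738. This is the library with the fewest UMIs per cell (median 1479) and the most oligodendrocyte RNA in its interneurons (marker share 5.36%).

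WT cortex replicate 3 was the far one in the other 4. Slc32a1 was 10.6 CPM in its mature oligodendrocytes (31 UMIs), a gap of 0.843. In its microglia Slc32a1 was 17.6 CPM (2 UMIs), Abat 43.9 CPM (5 UMIs) and Slc12a5 43.9 CPM (5 UMIs), each with a gap of 1 because the other 3 libraries had 0 UMIs. Those last values rest on few molecules.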

How the results depend on the processing

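Over the alternatives 9 to 13 of 18 tests between interneuron classes were called (11 in the main setting, 13 at an adjusted p under 0.05) and 15 to 19 of up to 24 against other cells (15 in the main setting, 19 under library-size scaling). Genotype tests and the tests of genotype by region gave 0 calls in each alternative run, by edgeR and by DESeq2, with 3 and 1 genes at an unadjusted p under 0.05 by edgeR in the main setting. Region tests gave 0, with 2 at an unadjusted p under 0.05 and 0 by DESeq2, except for 1 call under the replicate block, Slc12a2 in SST cells (0.94, adjusted p 0.00913). That block changed no other call. The single genes whose call changed are given in the report with the settings and libraries concerned. Against other cells the stricter cell filter and the fit without WT cortex replicate 3 tested 23 of 24, between regions the fit without doublets 17 of 18, and without null cortex replicate 2 there were 24 of 36 genotype tests and 12 of 18 of genotype by region.

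Of 114 log2 changes, compared in 2241 settings in all, 2110 kept their sign and their side of the limit, 10 lost a call, 17 gained one and 104 changed sign. The sign changes fell on 42 of the 114, and in 0 of them was the gene called in either setting. The cause was not tested for any of these. The alternative of the SST class without its shallowest cluster was chosen after seeing the data.

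DESeq2 gave Abat -0.022 for mature oligodendrocytes minus precursors, Gad2 -0.031 for SST genotype by region and Slc12a5 -0.0079 for NGFC null minus WT in cortex. Library-size scaling gave Abat -0.61 for mature oligodendrocytes minus precursors, Slc32a1 0.0014 for SST hippocampus minus cortex and Gad2 -0.010 for SST genotype by region. No filter beyond 1 UMI gave Gad2 -0.040, Gad1 -0.014 and Slc12a5 -0.057 for SST hippocampus minus cortex, Gad2 0.0014 for SST null minus WT in hippocampus, Gad1 -0.0054 and Slc32a1 -0.054 for PVALB hippocampus minus cortex, Gad2 0.055 for PVALB null minus WT in hippocampus and Gad1 0.0021 for NGFC hippocampus minus cortex. It gave as well Gad2 0.037 for NGFC null minus WT in hippocampus. The replicate block gave Gad2 0.037 for SST null minus WT in cortex, Gad2 0.038 for SST null minus WT in hippocampus, Gad2 0.051 for PVALB null minus WT in cortex, Gad2 0.17 for PVALB null minus WT in hippocampus and Slc12a5 -0.11 and Slc12a2 -0.80 for NGFC null minus WT in cortex. The block also gave Gad2 0.11 for NGFC null minus WT in hippocampus and Gad1 0.031 and Abat 0.055 for NGFC genotype by region. Resolution 0.6 gave Gad2 -0.011 for SST genotype by region and Abat 0.0067 for PVALB genotype by region. Resolution 1.4 gave Slc12a2 -0.39 for interneurons minus glutamatergic cells. The stricter cell filter gave Gad2 -0.012 for SST genotype by region and Slc12a5 -0.0046 for NGFC null minus WT in cortex. Removing Scrublet's doublets gave Gad2 -0.00013 for SST genotype by region and Gad2 0.016 for NGFC null minus WT in hippocampus. Leaving out the shallowest SST cluster gave Gad2 -0.032 for SST genotype by region.

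Leaving out each library in turn moved the following past 0, given as the lowest and highest log2 change. The test of SST null minus WT in cortex gave Gad2 -0.15 to 0.053, Abat -0.0059 to 0.19 and Slc12a2 -1.42 to 0.094. For SST null minus WT in hippocampus the ends were Gad2 -0.18 to 0.031 and Slc12a5 -0.81 to 0.13. The test of SST genotype by region gave Gad2 -0.15 to 0.12, Gad1 -0.36 to 0.25, Slc32a1 -0.50 to 0.19, Slc12a5 -0.66 to 0.29 and Slc12a2 -1.11 to 0.76. For PVALB null minus WT in cortex the ends were Gad2 -0.27 to 0.044. The test of PVALB null minus WT in hippocampus gave Gad2 -0.17 to 0.16, Gad1 -0.011 to 0.61, Slc32a1 -0.22 to 0.42 and Slc12a5 -0.28 to 0.42. For PVALB genotype by region the ends were Gad2 -0.055 to 0.29, Slc32a1 -0.63 to 0.026 and Slc12a5 -0.62 to 0.10. The test of NGFC null minus WT in cortex gave Slc12a5 -0.029 to 0.065 and Slc12a2 -0.0014 to 0.72. For NGFC null minus WT in hippocampus the ends were Gad2 -0.22 to 0.13 and Slc12a2 -2.96 to 0.35. The test of NGFC genotype by region gave Gad1 -0.14 to 0.12, Slc32a1 -0.58 to 0.015, Abat -0.20 to 0.10 and Slc12a2 -3.18 to 0.14. For NGFC minus PVALB the ends were Slc12a2 -0.31 to 0.39. The test of mature oligodendrocytes minus precursors gave Slc32a1 -0.54 to 0.15 and Abat -0.077 to 0.32. For SST hippocampus minus cortex the ends were Gad2 -0.082 to 0.16, Gad1 -0.077 to 0.17, Slc32a1 -0.37 to 0.064 and Slc12a5 -0.10 to 0.10. The test of PVALB hippocampus minus cortex gave Slc32a1 -0.12 to 0.20, Slc12a5 -0.036 to 0.27 and Abat -0.19 to 0.054. For NGFC hippocampus minus cortex the ends were Gad2 -0.28 to 0.064, Gad1 -0.20 to 0.064 and Slc12a2 -0.44 to 1.38.

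The log2 ratio of Gad2 to Gad1 ran from -0.17 to 0.16 for SST hippocampus minus cortex, -0.26 to 0.034 for NGFC hippocampus minus cortex and -0.65 to 0.089 for PVALB null minus WT in hippocampus. The log2 ratio of Slc12a5 to Slc12a2 ran from -0.14 to 0.24 for NGFC minus PVALB, -0.18 to 0.93 for SST null minus WT in cortex, -0.13 to 0.13 for PVALB null minus WT in cortex, -0.66 to 0.55 for NGFC hippocampus minus cortex and -0.21 to 1.29 for NGFC null minus WT in hippocampus. With the mean over cells of UMIs per 10000 in place of sums, the ratio of Slc12a5 to Slc12a2 gave -0.011 for NGFC minus PVALB and 0.29 for PVALB null minus WT in cortex.

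Shares of WT interneurons with a UMI followed the depth. With all UMIs they were 88.7%, 94.0%, 76.2%, 65.0%, 12.8% and 68.4% for Gad1, Gad2, Slc32a1, Abat, Slc12a2 and Slc12a5, and thinned to 500 UMIs 35.8%, 44.7%, 16.7%, 11.2%, 1.28% and 11.7%.

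Calls among all genes moved by over 1.5 times in several comparisons. PVALB minus SST went from 2541 to 1562 without WT cortex replicate 3, and interneurons minus glutamatergic cells from 2282 to 1506 without WT cortex replicate 2. Without WT cortex replicate 1 the region calls fell from 5 to 0 in SST and from 3 to 0 in PVALB cells. SST cells had 370 under the replicate block and 145 with DESeq2, PVALB cells 82 with no filter and 22 with DESeq2, and NGFC cells 33 and 4 in place of 0. Null minus WT went from 0 to 22 with no filter and 2 with DESeq2 in SST cortex, 19 and 2 in SST hippocampus, 14 and 1 in PVALB hippocampus, 4 and 0 in NGFC cortex and 22 and 1 in NGFC hippocampus. In PVALB cortex 1 became 59 with no filter, 16 with DESeq2 and 0 without null cortex replicate 1. Genotype by region gave 1 each with no filter in SST and PVALB cells.

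Library-size scaling moved the median log2 change of all genes from -0.0082 to 0.39 for interneurons minus the oligodendrocyte lineage and from 0.055 to -0.66 for mature oligodendrocytes minus precursors. Calls higher and lower went from 4791 and 4726 to 6187 and 3388 in the first and from 3241 and 3001 to 1623 and 5136 in the second. Relative to the median, Slc12a2 was -4.88 and -4.87 in the first.

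Slc12a2 in PVALB and NGFC cells rested on as few as 3 UMIs per library, and the size of difference detectable at this depth was not measured. The null groups hold 2 libraries each and 1 for cortical NGFC cells, and chemistry and replicate 1 cannot be told apart. WT hippocampus replicate 2 was both shallowest and richest in oligodendrocyte RNA in its interneurons, and these cannot be told apart either. Cell classes were rebuilt from markers, and libraries pool mice, so spread between animals was not measured.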
